A study of Homo sapiens with 24 samples.

Results

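NLRP1 and 8 further genes of the inflammasome pathway were followed through RNA-seq libraries of A549, a long-established human cell line derived from a lung adenocarcinoma. The 9 genes are NLRP1, CARD8, DPP9, PYCARD, CASP1, CASP4, GSDMD, GSDME and IL18, and each matched 1 of the 58721 gene rows counted in all 24 libraries. The set was chosen on the measured level of NLRP1, which stood above its control after the double knockdown of MYBL2 and FOXM1. Levels of the 9 genes in that comparison are therefore given as a description with no test. The libraries of the double knockdown enter none of the other tests of the 9 genes, while genes outside the set are tested in them. Those other tests are not fully independent of the choice. The members were chosen with earlier results of these data known, and the double knockdown includes siRNA against MYBL2.

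The study asked which genes depend on the transcription factors MYBL2 and FOXM1 in lung adenocarcinoma cells and what the compound FDI-6, described as an inhibitor of FOXM1, does to them. Cells were transfected with 25 nM of siRNA against MYBL2 (siMYBL2, 4 libraries), against FOXM1 (siFOXM1, 4 libraries) or with scrambled siRNA (siControl, 4 libraries), and both single knockdowns share these controls. Further cells received both siRNAs (siBoth, 3 libraries) or scrambled siRNA for that experiment (siControl_Both, 3 libraries), and others were exposed to 20 µM FDI-6 for 24 h (FDI6, 3 libraries) or left as its control (control_FDI6, 3 libraries). All groups are of the same line, cultured in DMEM or RPMI with serum. The study's text names DMSO as the comparison for FDI-6, which the labels do not state, and the sources used here give no time from transfection to harvest and no siRNA sequences. The methods call the replicates biological, and the labels number them without saying which cultures they came from. P-values measure the spread between these libraries.

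Inflammasomes are protein complexes that form when a sensor in the cytosol meets a danger signal. The sensors NLRP1 and CARD8 carry a CARD domain that is freed when the rest of the protein is degraded, and NLRP1 is known as the main inflammasome sensor of human epithelial cells. DPP9, a peptidase, binds both sensors and holds them inactive. An assembled sensor recruits CASP1, in the case of NLRP1 through the adaptor ASC that PYCARD encodes. CASP1 matures the cytokine IL18 and cuts GSDMD, whose freed part forms pores in the plasma membrane, the lytic death called pyroptosis. CASP4 senses lipopolysaccharide inside the cell and also cuts GSDMD. GSDME is a related pore former. All of these steps act on proteins, and the values below are RNA levels.

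Levels are read pairs counted on a gene, as CPM, counts relative to the TMM-scaled total of the library. A gene is said to have risen or fallen at an adjusted p under 0.05 from edgeR's quasi-likelihood test across all genes tested, with Benjamini-Hochberg adjustment, and is called where its fold change was also over 1.5. Between 16487394 and 30140550 pairs were counted on genes per library, so that 1 CPM stood for about 16 to 30 pairs. The not aligned share was 9.09% to 10.9% in siBoth and 7.68% to 7.92% in siControl_Both, above the 1.73% to 3.03% of the other groups. The knockdowns were seen in the counts, with MYBL2 at 4.18% of control in siMYBL2 and 4.9% in siBoth, and FOXM1 at 9.61% in siFOXM1 and 9.67% in siBoth. FOXM1 was also at 60.2% of control in siMYBL2, and FDI6 libraries held MYBL2 at 70.0% and FOXM1 at 77.5% of their control. Each of 8 epithelial markers and 8 genes known to be abundant in A549 had a mean of at least 1 CPM in every group.

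The 9 genes lie on 6 chromosomes of hg38, all protein-coding, with positions from GENCODE V44. NLRP1 (ENSG00000091592.15) is at chr17:5499415-5619424 on the minus strand with 17 exons in its canonical transcript, CARD8 (ENSG00000105483.17) at chr19:48180770-48255946 and DPP9 (ENSG00000142002.17) at chr19:4674341-4724673. PYCARD (ENSG00000103490.13) is at chr16:31201486-31203450. CASP1 (ENSG00000137752.23, chr11:105025397-105035250), CASP4 (ENSG00000196954.13, chr11:104942866-104969366) and IL18 (ENSG00000150782.11, chr11:112143253-112164096) share chromosome 11, and GSDME (ENSG00000105928.14) is at chr7:24698355-24757940. GSDMD is placed where it is described. For PYCARD, 59.7% of the exonic length is overlapped on the other strand by PYCARD-AS1, which held 0 to 1 counts per library, and for DPP9 14.5% is overlapped, by DPP9-AS1 with 0 to 18 counts and by a further gene that is not among the rows. For CARD8 5.3% is overlapped on the other strand, by ZSWIM9 with 159 to 623 counts and CARD8-AS1 with 8 to 50 counts among others. For NLRP1 7.4% is overlapped on the same strand by ENSG00000286190, which is not among the rows. The strand setting of the counting is not given in the sources used here, so sense and antisense pairs over these stretches cannot be told apart.

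Promoter windows from RefSeq, 250 bases before to 50 bases after a transcription start on GRCh38.p14, were matched for 5 members, CARD8, DPP9, PYCARD, CASP4 and GSDME. The windows of GSDME and CASP4 are shown because these are the matched members that rose in a single treatment below, GSDME with siMYBL2 and CASP4 with FDI-6. Capitals mark matches to the MYB core AACNG or to CCAAT, on either strand, and the matches did not overlap. Windows were searched on both strands for those motifs and for TTTGAA (the CHR element of cell-cycle promoters), GTAAACA (a forkhead site) and TTCNNNGAA (a GAS element, bound by STAT factors). Both sequences run 5′ to 3′ on the minus strand, at chr7:24757415-24757714 for GSDME and chr11:104968525-104968824 for CASP4.
GSDME: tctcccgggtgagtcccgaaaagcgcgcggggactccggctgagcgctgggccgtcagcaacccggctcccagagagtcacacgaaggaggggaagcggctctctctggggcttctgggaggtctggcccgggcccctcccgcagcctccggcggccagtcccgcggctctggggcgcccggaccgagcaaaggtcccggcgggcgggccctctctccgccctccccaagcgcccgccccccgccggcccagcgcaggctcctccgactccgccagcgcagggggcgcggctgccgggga
CASP4: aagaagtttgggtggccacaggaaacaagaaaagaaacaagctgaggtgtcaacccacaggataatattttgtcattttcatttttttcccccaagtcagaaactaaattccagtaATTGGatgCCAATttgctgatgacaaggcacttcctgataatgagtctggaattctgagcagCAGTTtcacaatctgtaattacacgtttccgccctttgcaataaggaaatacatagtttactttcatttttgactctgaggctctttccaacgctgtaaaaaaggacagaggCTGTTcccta
The GSDME window was 77% G and C and matched none of the 5 motifs, while the CASP4 window was 39.7% G and C and held 2 MYB cores and 2 CCAAT matches, these last starting 134 and 126 bases before the start. Among 35116 promoter windows of this length, AACNG was found in 77.2%, CCAAT in 34.6%, TTTGAA in 15.2%, TTCNNNGAA in 7.66% and GTAAACA in 3.42%. A match describes the letters of the window and is no evidence that a factor binds there.

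NLRP1, the sensor, had its highest group mean in siMYBL2 and its lowest with FDI-6, while the lowest single library, at 1.15 CPM, was of siControl_Both. The 4 siMYBL2 libraries held 14.5, 10.8, 14.5 and 14.2 CPM (replicates 1 to 4), against 3.51, 2.49, 3.67 and 3.60 CPM in siControl. Every siMYBL2 library was above every siControl library, and replicate 2 was the lowest of both groups. NLRP1 rose with siMYBL2 by a log2 fold change of 2.05 ± 0.16 (SE, n = 4 and 4), 4.14-fold, with an edgeR adjusted p of 0.000195. The ratio of same-numbered libraries ranged from 3.94 to 4.34. In these bulk libraries a change in the share of cells that express a gene and a change in the RNA per cell cannot be told apart.

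With siFOXM1 the NLRP1 level was 3.28, 2.06, 2.58 and 1.93 CPM, and each library was below its same-numbered control although the groups overlapped. The log2 fold change was -0.42 ± 0.21, with an edgeR adjusted p of 0.451, or of 0.0374 once replicate numbers entered as a block. The means were 2.46 ± 0.614 CPM in siFOXM1 and 3.32 ± 0.557 CPM in siControl (SD, n = 4 each). Compared with each other without the shared controls, siMYBL2 libraries held more NLRP1 than siFOXM1 libraries by a log2 value of 2.47 ± 0.19 (edgeR adjusted p = 9.22e-05), higher in 4 of 4 same-numbered pairs.

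In siBoth, the comparison that chose the set, NLRP1 stood at 4.04, 6.62 and 9.81 CPM against 1.15, 1.39 and 2.90 CPM in siControl_Both. The siBoth libraries were all above their controls, with a spread among replicates wider than in the single knockdown. Replicate 3 was the highest and replicate 1 the lowest of both groups, and the ratio of same-numbered libraries was between 3.39 and 4.78. The fitted log2 fold change was 1.94 ± 0.42, and 1.96 ± 0.18 with the replicate block, and it ran from 1.56 to 2.44 when 1 library was left out at a time.

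NLRP1 was lower with FDI-6 than in its control. The FDI6 libraries held 1.502, 1.38 and 1.47 CPM (25, 24 and 27 counts) and the control_FDI6 libraries 3.03, 2.24 and 3.12 CPM (56, 46 and 58 counts), with no overlap. NLRP1 fell by 0.92 ± 0.24 on the log2 scale (edgeR adjusted p = 0.0113). The difference between this effect and that of siFOXM1 was -0.50 ± 0.32, which did not pass the test across all genes (edgeR adjusted p = 0.284), and the experiments differ in more than the agent.

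Over the 7 groups NLRP1 was ordered siMYBL2 (13.5 ± 1.81 CPM), siBoth (6.82 ± 2.89), siControl (3.32 ± 0.557), control_FDI6 (2.80 ± 0.485), siFOXM1 (2.46 ± 0.614), siControl_Both (1.81 ± 0.946) and FDI6 (1.45 ± 0.064; SD over 3 or 4 libraries). The siMYBL2 libraries did not overlap with those of siBoth, nor siBoth with siControl, while from siControl downward each neighbouring pair overlapped. Groups of different experiments are set side by side here without a test.

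**Figure D1:**
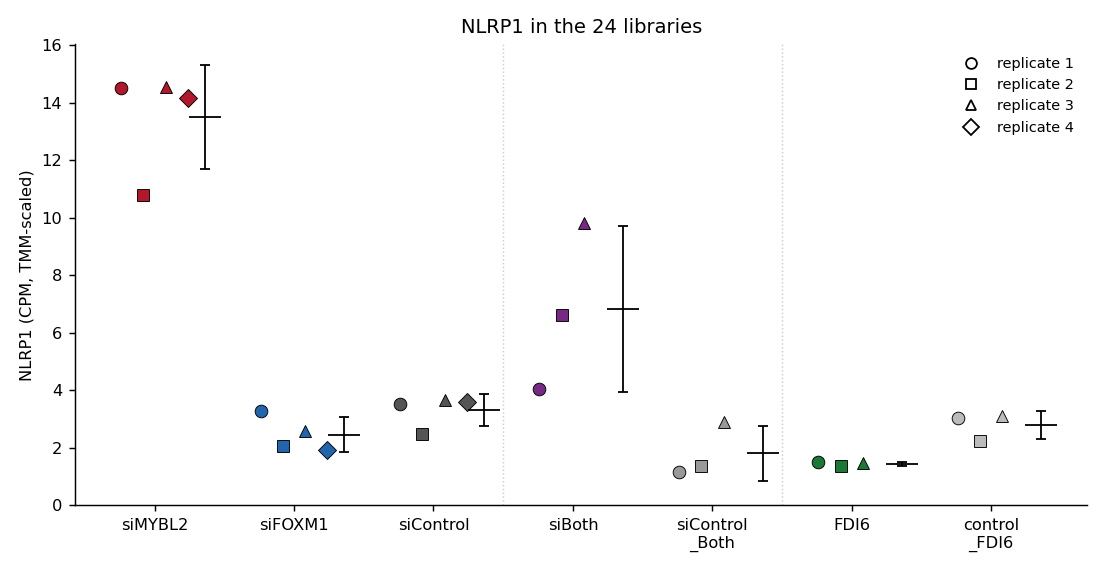
NLRP1 in CPM (linear axis from 0) in each of the 24 libraries, by group, with the marker shape giving the replicate number and the bar the mean ± SD. The siMYBL2 libraries lie between 10.8 and 14.5 CPM and the siBoth libraries between 4.04 and 9.81 CPM, above their own controls, while the FDI6 libraries lie between 1.38 and 1.502 CPM, below theirs.

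Of the 8 members tested with siMYBL2, 3 passed the adjusted p, against 18.1% of all genes tested, and all 3 were higher (8.53% of all genes tested rose). NLRP1 was the member called (7.9% of genes tested were called). The groups did not overlap for the same 3 members, NLRP1, GSDMD and GSDME, against 23.1% of genes tested. With siFOXM1 none of the 8 tested passed the adjusted p by edgeR or DESeq2, while 2 had an unadjusted p under 0.05 by edgeR, CASP4 and GSDME. With the replicate block 4 of 8 passed for siFOXM1 (NLRP1, GSDME, IL18 and CASP4), against 26.3% of genes tested, and 6 of 8 for siMYBL2 (also DPP9, IL18 and CASP4), against 46.7%. Without the block the siFOXM1 background was 1.37% for the adjusted p, 0.667% for called genes and 9.21% for groups that did not overlap, and for every member the siFOXM1 and siControl libraries overlapped.

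With FDI-6, 3 of the 8 members tested passed the adjusted p, a share close to the 38.9% of all genes tested. NLRP1 fell, CASP4 rose and both were called (13.8% of genes tested), GSDMD fell by less than 1.5-fold, and 4 members had groups that did not overlap against 51.9% of genes tested. In siBoth 5 of 9 members had groups that did not overlap, NLRP1, PYCARD, GSDMD and GSDME above and CARD8 below the control, where 35.3% of genes tested were so, and nothing is read from this since the comparison chose the set. Between siMYBL2 and siFOXM1, 4 of 9 members passed the adjusted p (23.2% of genes tested), NLRP1 and GSDME were called (10.2%), and 3 did not overlap (26.4%). The direct test of the FDI-6 effect against the siFOXM1 effect passed for 1 of 8 members, GSDMD (20.9% of genes tested passed), which was under the fold of 1.5 that 11.5% of genes tested also passed.

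**Figure D2:**
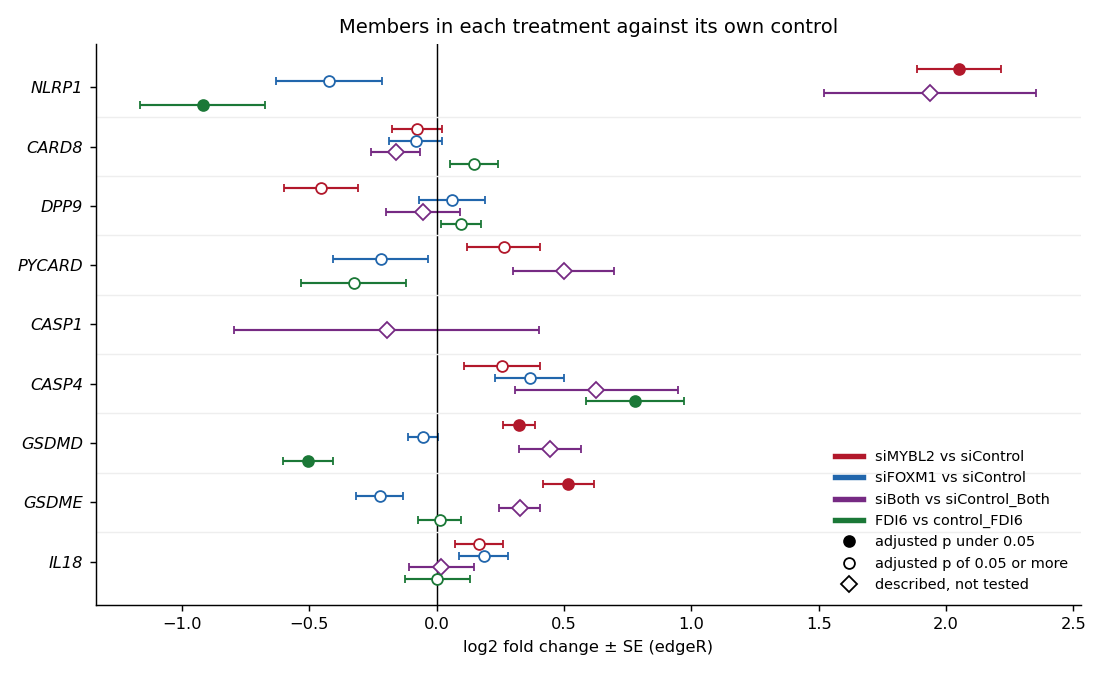
Log2 fold changes of the 9 members with their SE (edgeR) in the 4 treatments, each against its own control. Filled circles have an adjusted p under 0.05, open circles do not, and open diamonds (siBoth) are described and not tested. NLRP1 lies at 2.05 with siMYBL2 and at -0.92 with FDI-6, and CASP1 was tested in none of the other 3 treatments because its counts were too low.

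CARD8, the related sensor, stayed within a narrow range. Its siMYBL2 libraries held 22.9, 27.0, 24.3 and 27.7 CPM, its siFOXM1 libraries 23.7, 25.7, 23.2 and 30.0 CPM and its siControl libraries 24.4, 27.4, 26.3 and 30.9 CPM. Both single knockdowns overlapped with the controls, with log2 fold changes of -0.08 ± 0.10 for each (edgeR adjusted p = 0.64 and 0.84). The siBoth libraries (23.4, 23.3 and 26.3 CPM) lay just below siControl_Both (27.9, 26.4 and 28.96 CPM), a log2 fold change of -0.16 ± 0.10. With FDI-6 CARD8 stood at 33.7, 32.5 and 27.8 CPM against 29.7, 29.6 and 26.7 CPM, which did not pass the test (edgeR adjusted p = 0.242). Its log2 value for siMYBL2 against siFOXM1 was 0.00 (edgeR adjusted p = 0.989) and turned negative in 5 of the 8 fits that left out 1 library.

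DPP9, the inhibitor of both sensors, was the most counted member and lower in siMYBL2. The siMYBL2 libraries held 79.6, 94.0, 84.6 and 59.8 CPM and the siControl libraries 111.9, 117.4, 125.5 and 87.1 CPM. Each siMYBL2 library was below its same-numbered control by a ratio of 0.674 to 0.8, while the groups overlapped, with replicate 4 the lowest in both. This gave a log2 fold change of -0.45 ± 0.14, with an edgeR adjusted p of 0.0584 without and 3.49e-06 with the replicate block. It was 0.0229 by DESeq2, 0.0346 with no filter on low counts, 0.0363 in the fit of all 12 libraries, 0.048 without siMYBL2 replicate 2 and 0.0184 without siControl replicate 4.

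The siFOXM1 libraries held DPP9 at 117.6, 123.3, 124.8 and 92.7 CPM, around the level of siControl, with a log2 fold change of 0.06 ± 0.13 (edgeR adjusted p = 0.922). Against siFOXM1, siMYBL2 libraries held less DPP9 by a log2 value of -0.52 ± 0.14 (edgeR adjusted p = 0.0268), lower in 4 of 4 pairs. This adjusted p was 0.0655 to 0.0696 without siMYBL2 replicate 1 or without siFOXM1 replicate 1, 2 or 3, and 7.13e-07 with the replicate block. In siBoth DPP9 was at 116.0, 139.3 and 95.0 CPM against 119.2, 138.4 and 113.0 CPM, a log2 fold change of -0.05 ± 0.14 that lies nearer to 0 than in siMYBL2, a difference that was not tested. FDI6 (106.2, 126.3 and 116.4 CPM) and control_FDI6 (115.8, 111.5 and 104.3 CPM) overlapped, with a log2 fold change of 0.10 ± 0.08 and an edgeR adjusted p of 0.366, which was 0.0205 without FDI6 replicate 1 at a log2 value of 0.16.

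PYCARD, the adaptor, was a low gene, with 2.10 to 7.17 CPM per library. The siMYBL2 libraries held 5.48, 7.17, 5.05 and 5.03 CPM, the siFOXM1 libraries 4.17, 5.61, 3.18 and 3.49 CPM and the siControl libraries 4.93, 5.35, 4.52 and 4.401 CPM. Every siMYBL2 library was above its same-numbered control and above its same-numbered siFOXM1 library, and replicate 2 was the highest of all 3 groups. The log2 fold change was 0.26 ± 0.14 with siMYBL2 (edgeR adjusted p = 0.243) and -0.22 ± 0.18 with siFOXM1 (0.715). The difference of 0.48 ± 0.20 between them had an edgeR adjusted p of 0.114, of 0.00287 with the replicate block and of 0.0356 without siFOXM1 replicate 2. PYCARD stood at 5.09, 4.25 and 4.76 CPM in siBoth against 4.20, 3.00 and 2.99 CPM, a log2 fold change of 0.50 ± 0.20. The FDI6 libraries (2.10, 2.30 and 2.45 CPM, 35 to 45 counts) all lay below control_FDI6 (2.65, 3.07 and 3.02 CPM), but the log2 fold change of -0.33 ± 0.21 did not pass the test (edgeR adjusted p = 0.234).

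CASP1, the inflammasome caspase, was hardly detected. It held 0 to 28 counts per library, with group means from 0.0592 CPM in FDI6 to 0.759 CPM in siControl_Both. The filter on low counts removed it from the siMYBL2, siFOXM1 and FDI-6 fits. It was kept in siBoth, where the libraries held 28, 13 and 8 counts against 27, 21 and 5 in the control and the log2 fold change was -0.20 ± 0.60. In the fit of siMYBL2 against siFOXM1 its log2 value was -0.27 ± 0.50 (edgeR adjusted p = 0.744). With these standard errors a log2 change of the size seen for GSDMD with siMYBL2 below, 0.32, was not detectable at this depth.

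CASP4, the lipopolysaccharide-sensing caspase, rose with FDI-6 and varied widely among the double-knockdown libraries. The FDI6 libraries held 7.81, 5.75 and 8.16 CPM and control_FDI6 3.46, 4.34 and 5.06 CPM, with no overlap. This was a log2 fold change of 0.78 ± 0.19 (1.72-fold, edgeR adjusted p = 0.00752). In siBoth CASP4 was at 33.6, 29.8 and 15.8 CPM against 22.4, 19.0 and 10.9 CPM, so that replicate 3 was the lowest of both groups and the groups overlapped. Each siBoth library was 1.45 to 1.57 times its same-numbered control, and the log2 fold change was 0.63 ± 0.32, or 0.62 ± 0.09 with the block.

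The single knockdowns left CASP4 nearer to control. It was at 14.2, 10.5, 12.4 and 10.2 CPM in siMYBL2, 14.1, 10.4, 13.3 and 13.6 CPM in siFOXM1 and 11.7, 8.60, 10.9 and 8.93 CPM in siControl. All 4 libraries of each knockdown were above their same-numbered control while the groups overlapped. The log2 fold change was 0.26 ± 0.15 with siMYBL2 (edgeR adjusted p = 0.267, and 0.0148 with the replicate block) and 0.36 ± 0.14 with siFOXM1 (0.292, and 0.000786 with the block). The FDI-6 effect exceeded the siFOXM1 effect by 0.41 on the log2 scale, a difference that did not pass the test (edgeR adjusted p = 0.249). The control level itself differed between experiments, from 4.29 ± 0.802 CPM in control_FDI6 to 17.4 ± 5.92 CPM in siControl_Both (SD, n = 3 each).

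GSDMD, the pore-forming substrate of CASP1 and CASP4, rose with siMYBL2 and fell with FDI-6, by less than 1.5-fold in each. The gene (ENSG00000104518.10) is at chr8:143553207-143563062 on the plus strand. The siMYBL2 libraries held 53.9, 51.5, 52.1 and 54.1 CPM and the siControl libraries 43.3, 40.0, 46.3 and 42.3 CPM. The lowest siMYBL2 library was above the highest control, and the log2 fold change was 0.32 ± 0.06 (1.25-fold, edgeR adjusted p = 0.00873). With FDI-6 the level was 27.0, 32.1 and 33.4 CPM against 43.2, 47.3 and 42.9 CPM, also with no overlap. GSDMD fell by 0.50 ± 0.10 on the log2 scale (edgeR adjusted p = 0.00195).

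The siFOXM1 libraries held GSDMD at 41.8, 39.5, 40.6 and 43.1 CPM, within the range of siControl or just below it, with a log2 fold change of -0.05 ± 0.06 (edgeR adjusted p = 0.815). GSDMD was higher in siMYBL2 than in siFOXM1 by 0.37 ± 0.06 on the log2 scale (edgeR adjusted p = 0.00189), in 4 of 4 pairs. The FDI-6 effect lay below the siFOXM1 effect by -0.46 ± 0.11 (edgeR adjusted p = 0.0117), the difference past the test among the members. In siBoth GSDMD was at 45.7, 56.2 and 45.9 CPM against 40.8, 37.5 and 32.3 CPM, a log2 fold change of 0.45 ± 0.12.

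GSDME, the related pore former, rose with siMYBL2 as well. The siMYBL2 libraries held 71.0, 73.9, 75.8 and 61.1 CPM and the siControl libraries 52.3, 48.5, 56.9 and 42.3 CPM, with no overlap and replicate 4 lowest in both. GSDME rose by a log2 fold change of 0.52 ± 0.10 (1.43-fold, edgeR adjusted p = 0.00824). The siFOXM1 libraries were at 42.2, 45.4, 43.8 and 39.2 CPM, each below its same-numbered control, with a log2 fold change of -0.22 ± 0.09 and an edgeR adjusted p of 0.349 without and 0.000866 with the replicate block. Between the single knockdowns GSDME was higher in siMYBL2 by 0.74 ± 0.08 on the log2 scale (1.66-fold, edgeR adjusted p = 0.000373) and was called. In siBoth it was at 64.3, 65.3 and 61.5 CPM against 55.6, 50.4 and 49.4 CPM, a log2 fold change of 0.33 ± 0.08. FDI6 (45.7, 39.3 and 42.3 CPM) and control_FDI6 (39.8, 43.6 and 44.9 CPM) overlapped, with a log2 fold change of 0.01 ± 0.09 (edgeR adjusted p = 0.93) whose sign turned under upper-quartile scaling.

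**Figure D3:**
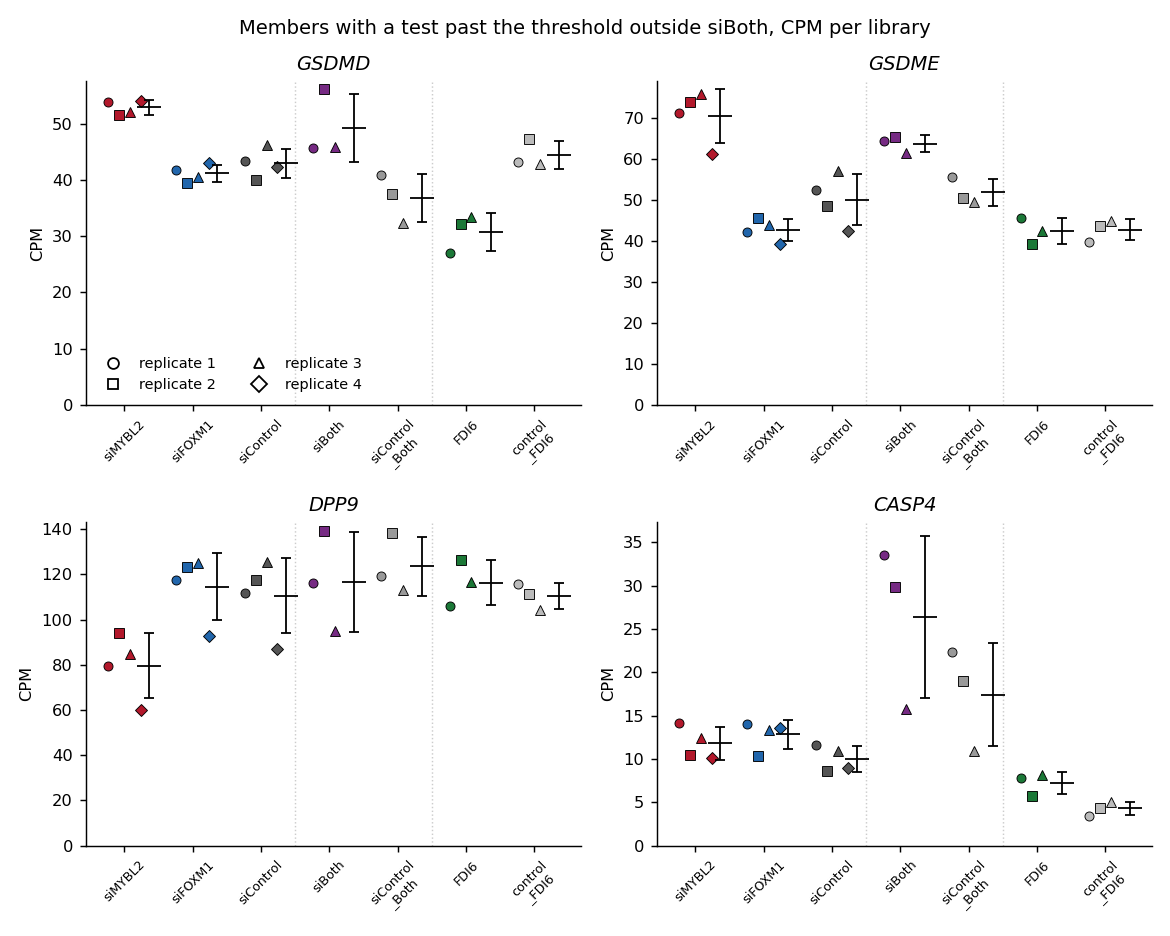
CPM (linear axes from 0) of GSDMD, GSDME, DPP9 and CASP4 in each library by group, with the marker shape giving the replicate number and the bar the mean ± SD. GSDMD and GSDME of siMYBL2 lie above every siControl library, GSDMD of FDI6 lies below and CASP4 of FDI6 above every control_FDI6 library, and same-numbered libraries of siBoth and siControl_Both move together for CASP4.

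IL18, the cytokine, was among the higher members and moved little. The siMYBL2 libraries held 62.8, 73.4, 65.3 and 54.0 CPM, the siFOXM1 libraries 66.4, 67.3, 72.8 and 54.8 CPM and the siControl libraries 58.8, 61.1, 59.9 and 51.1 CPM. Every knockdown library was above its same-numbered control, by at most 1.22 times, while the groups overlapped. The log2 fold change was 0.17 ± 0.09 with siMYBL2 (edgeR adjusted p = 0.251, and 0.0109 with the replicate block) and 0.18 ± 0.10 with siFOXM1 (0.487, and 0.00158 with the block). IL18 was at 58.6, 45.7 and 43.9 CPM in siBoth against 54.3, 50.6 and 44.2 CPM, a log2 fold change of 0.02 ± 0.13. With FDI-6 it was at 63.0, 41.4 and 45.3 CPM against 52.3, 48.9 and 50.3 CPM, where replicate 1 was above and the other libraries were below all controls. The log2 fold change was 0.00 ± 0.13 (edgeR adjusted p = 0.987), and without FDI6 replicate 1 it was -0.19 with an adjusted p of 0.0364.

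Per kb of exonic length, the scale on which genes can be compared, the members fell into a wide range. In siControl IL18 led with a mean of 22.2 ± 1.73 CPM per kb, followed by DPP9 (9.94 ± 1.49), GSDMD (8.45 ± 0.512) and GSDME (5.82 ± 0.719; SD, n = 4). PYCARD (2.89 ± 0.26), CARD8 (2.06 ± 0.207) and CASP4 (1.503 ± 0.223) were lower. NLRP1 stood at 0.165 ± 0.0276 CPM per kb and CASP1 at 0.0715 ± 0.0248. Even at its highest, 0.670 ± 0.09 CPM per kb in siMYBL2, NLRP1 remained below the mean of CASP4 in that group, 1.77 ± 0.279 CPM per kb. The length is the union of all annotated exons, 20.157 kb for NLRP1 against 1.66 kb for PYCARD, so genes with many unused exons read low on this scale.

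**Figure D4:**
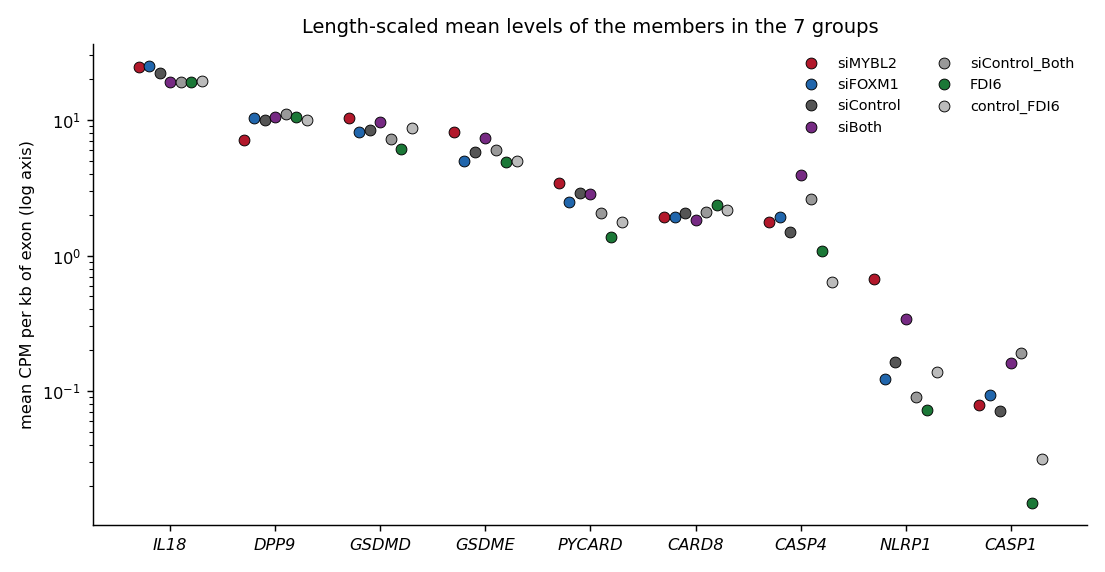
Mean CPM per kb of exonic length of the 9 members in the 7 groups, on a log axis. IL18 lies highest in every group, NLRP1 ranges from 0.072 CPM per kb in FDI6 to 0.670 in siMYBL2, and CASP1 is lowest in 6 of the 7 groups, the exception being siControl_Both, where NLRP1 is lowest.

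The genes whose pattern was most like that of NLRP1, by Pearson correlation over the 24 libraries of log2 CPM minus the mean of the own control group among 11058 genes, were PNMA8A (r = 0.954), ADGRB2 (0.946), GALNT16 (0.935), SPTB (0.933) and VANGL2 (0.927). Their log2 fold changes were 0.80 to 1.37 with siMYBL2 and 0.69 to 1.35 in siBoth, beside 2.05 and 1.94 for NLRP1. The siBoth libraries, whose NLRP1 level chose the set, are among the 24. Of the 6 other members above the level set for this measure, which PYCARD and CASP1 did not reach, GSDME (r = 0.785) and GSDMD (0.784) were closest, CASP4 (-0.095) and IL18 (0.00) were near 0, and DPP9 (-0.638) and CARD8 (-0.462) ran opposite. These libraries share controls, treatments and depth, and the correlations are given as a description.

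The other genes of the pathway were taken from lists of 129 genes in all. The lists were chosen with earlier results of these data known, so their counts here and below are given as a description. Most other inflammasome sensors were scarcely counted, since 9 of 28 sensors and adaptors passed the filter with siMYBL2. NLRP3, chosen here after its values were seen, held at most 1.33 CPM in any library and AIM2 had 1 count over all libraries. Others, also chosen after their values were seen, were well counted. NLRP2 held 72.4 to 113.0 CPM per library, and the median over the libraries was 11.3 CPM for NOD1, 10.9 for IFI16 and 9.9 for NLRC5. NLRX1, a mitochondrial member of the NLR family, fell with siMYBL2 from 29.02 ± 2.85 to 18.2 ± 0.862 CPM (log2 fold change -0.65 ± 0.09, edgeR adjusted p = 0.00188), the gene called in that list. Of 16 activators and binding partners of NLRP1 all were tested, and 2 passed the adjusted p with siMYBL2, where 18.1% of all genes tested passed. These 2 fell, each by less than 1.5-fold.

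Among the lists chosen in this way, that of interferon-induced genes had the most calls in siMYBL2. Of 16 tested, 7 rose and 5 were called higher, where 8.53% of all genes tested rose and 7.9% were called in either direction, and the list's median log2 fold change was 0.56 against 0.01 over all genes tested. OASL was at 4.32 ± 0.688 CPM against 1.25 ± 0.522 (log2 fold change 1.80 ± 0.29, edgeR adjusted p = 0.00383), and MX1 (1.32 ± 0.29), IFIT1 (1.22 ± 0.23) and ISG15 (1.09 ± 0.28) rose as well (0.015, 0.00692 and 0.0255). Among 7 tested genes of the list of other gasdermins and membrane rupture, GBP2 (1.10 ± 0.15, edgeR adjusted p = 0.00189) and GBP3 (0.89 ± 0.18, 0.0109) were called. Both are guanylate-binding proteins, GTPases that interferon induces, and not gasdermins. IL33, an alarmin of the IL-1 family, rose from 6.94 ± 2.29 to 14.3 ± 2.24 CPM (1.07 ± 0.22, edgeR adjusted p = 0.0111). Of the 12 NF-kB target genes, 9 had a positive and 3 a negative log2 fold change with siMYBL2, with a median of 0.28. None passed the adjusted p by edgeR, 3 had an unadjusted p under 0.05 and 1 passed by DESeq2. These tests are without the replicate block. The 12 genes summed to 421 to 1258 CPM in siMYBL2 and 308 to 873 CPM in siControl, so no absence of change is read from them. Among 10 p53 targets TNFRSF10B, a death receptor, fell from 291.0 ± 46.9 to 114.9 ± 19.7 CPM (-1.32 ± 0.15, edgeR adjusted p = 0.000635) and ZMAT3 rose (0.70 ± 0.10, 0.00211).

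In siFOXM1, 3 of the 87 listed genes that were tested passed the adjusted p, all lower by less than 1.5-fold, where 1.37% of all genes tested passed. Of the 12 NF-kB target genes, 1 had a positive and 11 a negative log2 fold change with siFOXM1. Their median was -0.357 against 0.00252 over all genes tested, and none had an unadjusted p under 0.05 by edgeR. The siBoth comparison, in which 6.44% of genes tested were called, had 3 of 17 tested interferon-induced genes called higher, IFIT1 (2.31 ± 0.46), IFIT2 (1.35 ± 0.31) and OASL (1.33 ± 0.36; edgeR adjusted p = 0.0181, 0.0268 and 0.048). Of the 16 activators and binding partners of NLRP1, 1 rose and 3 fell, with 8 positive and 8 negative log2 fold changes. The 1 called, a share close to that of all genes tested, was MAPK13, of the p38 kinases that can act on NLRP1. It stood at 4.48 ± 0.897 against 2.21 ± 0.227 CPM (1.04 ± 0.21, edgeR adjusted p = 0.0192). NEK7, a partner of NLRP3, was called lower (-0.64 ± 0.09, 0.00497), as was IL1RAP, a subunit of the IL-1 receptor (-0.76 ± 0.14, 0.0123). Of 10 p53 targets, with a median of 0.42, BBC3 (0.85 ± 0.21), FDXR (0.84 ± 0.23) and CDKN1A (0.74 ± 0.19) were called higher (edgeR adjusted p = 0.0343, 0.0465 and 0.0373), while TNFRSF10B was called lower, at 270.2 ± 39.2 against 565.2 ± 55.7 CPM (-1.04 ± 0.13, 0.00253). Among 12 NF-kB target genes in siBoth, with a median of 0.41, 11 had a positive and 1 a negative log2 fold change. Of these 12, 2 rose, and ICAM1 was called, at 84.4 ± 23.8 against 38.4 ± 8.46 CPM (1.16 ± 0.23, edgeR adjusted p = 0.0163). The siBoth and siMYBL2 comparisons share no library.

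With FDI-6, 11 NF-kB target genes were tested and all 11 rose, 10 of them called (38.9% of all genes tested passed the adjusted p and 13.8% were called), with a list median of 2.30 against -0.01 over all genes tested. CXCL8, a chemokine, went from 2.21 ± 0.458 to 56.9 ± 6.86 CPM (log2 fold change 4.71 ± 0.15, edgeR adjusted p = 1.04e-08), followed by CXCL1 (2.94 ± 0.11), CXCL2 (2.80 ± 0.14) and ICAM1 (2.78 ± 0.30). NEK7 rose (0.89 ± 0.10, 4.51e-05), in the opposite direction to siBoth, and so did the DNA sensor IFI16 (1.23 ± 0.18, 0.000292) and IL1RAP (1.07 ± 0.20, 0.00169). GSDMB, a further gasdermin, fell from 6.95 ± 1.76 to 4.21 ± 0.173 CPM (-0.70 ± 0.19, edgeR adjusted p = 0.0141). Of 15 tested interferon-induced genes 4 rose and 3 were called, IFI44 from 0.1601 ± 0.11 to 2.51 ± 0.682 CPM, OASL (2.36 ± 0.32) and IFIT3 (0.65 ± 0.19). CASP4 rose in the same FDI6 libraries as these NF-kB targets, while NLRP1 and GSDMD fell in them, and a link between these changes was not tested. Of 10 p53 targets tested with FDI-6, with a median of 0.445, 5 rose and 2 fell, and 4 were called higher and 1 lower. Those called higher were MDM2 (0.95 ± 0.08), GDF15 (0.85 ± 0.13), ZMAT3 (0.80 ± 0.12) and TNFRSF10B (0.76 ± 0.07). Their edgeR adjusted p was 4.41e-06, 0.000368, 0.000327 and 8.79e-06.

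Markers of other cells moved with some of these results. The list of 10 macrophage and monocyte markers summed to 14.6 to 18.8 CPM in siMYBL2 against 7.30 to 11.3 CPM in siControl, and to 16.6 to 20.1 CPM in siBoth against 7.22 to 11.1 CPM in siControl_Both. CD14 rose with siMYBL2 (1.06 ± 0.23, edgeR adjusted p = 0.0146), and CD14 and ITGAM rose in siBoth (1.08 ± 0.24 and 1.21 ± 0.20, 0.0254 and 0.00853). The other 8 markers had group means under 1 CPM in every group, with CD163 at 1 count, AIF1 at 2 and CD68 at 17 over all 24 libraries. ALDH1A1, among the most abundant A549 markers, fell with siMYBL2 (-1.55 ± 0.15, edgeR adjusted p = 0.000417) and in siBoth (-1.59 ± 0.11, 0.000293). With siMYBL2 the fibroblast marker THY1 rose (1.17 ± 0.19, edgeR adjusted p = 0.00408), the 1 that passed among 5 fibroblast markers tested. By log2 fold change, 3 of these 5 were higher and 2 lower. With FDI-6, 7 of 8 A549 markers and 5 of 8 epithelial markers fell, and 1 of each list rose. Over all genes tested, 38.9% passed the adjusted p. Those that fell included AKR1C2 (-1.17 ± 0.06) and CDH1 (-1.49 ± 0.12; edgeR adjusted p = 9.22e-08 and 5.54e-06). Of the markers of other cells, ITGAM was called higher with FDI-6 (0.83 ± 0.22, edgeR adjusted p = 0.0112) and the fibroblast marker COL1A1 lower (-1.28 ± 0.17, 0.000199). Of the 2 macrophage and monocyte markers tested with FDI-6, 1 had a positive and 1 a negative log2 fold change. That list summed to 4.99 to 6.04 CPM in FDI6 against 4.58 to 6.38 CPM in control_FDI6, which overlapped. The controls also differed between experiments, with the 12 NF-kB targets summing to 1785 to 2666 CPM in siControl_Both against 308 to 873 CPM in siControl and 246 to 266 CPM in control_FDI6. The part of these values in the levels of the members was not tested.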

How the data were processed

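RNA of A549 cells was sequenced after polyA capture as 150 bp read pairs in 24 libraries of 7 groups. Per the study's methods, the authors trimmed reads with Trim Galore, aligned them with STAR to hg38 and counted them with HTSeq on GENCODE V29, versions and strand setting not given in the sources used here. The deposited values are raw counts per gene and library. RNA isolation is described differently in the sources.

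Genes were named and placed with GENCODE V44, which matched 58207 of 58721 identifiers. HTSeq's summary lines stayed out of library sizes, and 73.8% to 81.5% of pairs fell on genes. Each treatment was compared with its own control by edgeR 4.0.16 (R 4.3.3, TMM, filterByExpr, quasi-likelihood test, Benjamini-Hochberg over all genes tested), with calls made at an adjusted p under 0.05 where the fold change also exceeded 1.5. The script was tested on simulated data. The alternatives were DESeq2 1.42.0, other scaling (RLE, upper quartile), other filters, a replicate block, a fit of all 12 single-knockdown libraries and leaving out each library.

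The members and lists were chosen with earlier results of these data known. Text names all 9 members, at most 4 called genes per list and comparison (the largest log2 fold changes, mean of at least 1 CPM), and the 5 genes most like NLRP1 among those with a mean of at least 5 CPM. CPM uses TMM-scaled library sizes. Replicate numbers were taken to pair the libraries of siMYBL2, siFOXM1 and siBoth with their controls, because libraries with the same number deviated together from the means of their groups, with correlations of 0.573 to 0.875, 0.539 to 0.906 and 0.553 to 0.688, but not those of FDI6 (-0.288 to 0.161). No 2 of the 30 same-group pairs agreed within sampling noise (chi-square per gene 3.573 to 62.81).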

Additional observations from a re-analysis of the deposited data

Results flagged for a closer look

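NLRP1 had 1 library apart from the other 3 in both groups of the siMYBL2 experiment. In siMYBL2, replicate 2 (10.8 CPM) lay below the next library (14.2 CPM) by 0.904 of the group's range, and in siControl replicate 2 (2.49 CPM) lay below the next (3.51 CPM) by 0.869 of the range, both above Dixon's critical value. Of such groups, 27 were examined, and chance flags about 1 in 20.

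The effects of the single knockdowns differed by a test of the difference itself (edgeR, siMYBL2 against siFOXM1) for NLRP1 (log2 2.47, adjusted p = 9.22e-05), GSDME (0.735, 0.000373), GSDMD (0.372, 0.00189) and DPP9 (-0.519, 0.0268). The FDI-6 effect on GSDMD differed from the siFOXM1 effect by -0.455 (adjusted p = 0.0117).

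In other pairs of treatments every library of one group lay above and every library of the other below its own controls, and these differences were not tested. For siMYBL2 and FDI-6 they were 2.97 on the log2 scale for NLRP1 (4.075 and 0.5184 times the control mean) and 0.83 for GSDMD (1.232 and 0.6929 times). The siBoth level of NLRP1 chose the set, so nothing is read from the size of the values for siBoth and FDI-6, which were 2.86 for NLRP1 (3.765 times in siBoth), 0.819 for PYCARD (1.384 and 0.7843 times) and 0.947 for GSDMD (1.336 times in siBoth).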

How the results depend on the processing

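NLRP1, GSDMD and GSDME with siMYBL2 passed the adjusted p in all 15 alternatives, and NLRP1, CASP4 and GSDMD with FDI-6 in all 12. DPP9 with siMYBL2 passed in 6 of 15. The members called stayed at 1 for siMYBL2, 0 for siFOXM1 and 2 for FDI-6. Over all genes, the count called was 1991 with the replicate block for siMYBL2 (1269 without), 162 by DESeq2 and 401 with the block for siFOXM1 (106), and 1545 with no filter and 1849 with the block for siBoth (1019). Leaving out 1 library gave 56 to 115 for siFOXM1, the low end without siFOXM1 replicate 1 (56) or 3 (69) or siControl replicate 1 (66) or 2 (68), and 587 to 1097 for siBoth, the low end without siBoth replicate 2 (587) or siControl_Both replicate 2 (589) or 3 (643). Upper-quartile scaling moved the share called higher from 43.47% to 59.4% in siBoth and from 63.65% to 51.43% in the FDI-6 against siFOXM1 difference. The block moved the adjusted p of the members past 0.05 where this is printed beside them, and left every member tested with FDI-6 on its side of 0.05.

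In the tested comparisons, changes of sign were in members whose log2 value did not pass the test over all libraries. With FDI-6, IL18 was -0.0386 by upper-quartile scaling, -0.000728 under the stricter filter, -0.0164 with the block and -0.188 to 0.119 with 1 library left out, and GSDME was -0.0312 by upper-quartile scaling and -0.0402 to 0.0624 with 1 left out. DPP9 with siFOXM1 ranged from -0.0361 to 0.153. Between siMYBL2 and siFOXM1, IL18 was 0.0246 by upper-quartile scaling and -0.106 to 0.0448, and CARD8 -0.0482 to 0.0786, with 1 left out. For the FDI-6 against siFOXM1 difference, DPP9 was -0.0252 by upper-quartile scaling and -0.0555 to 0.128, and PYCARD -0.207 to 0.0791. In siBoth, which was not tested for the members, CASP1 ranged from -0.778 to 0.318, IL18 from -0.132 to 0.0934 and DPP9 from -0.205 to 0.0587. The causes were not tested.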
